A study of Homo sapiens with 10 samples.

Results

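The senescence secretory genes are 39 genes for cytokines, chemokines, proteases and their inhibitors, insulin-like growth factor (IGF) binding proteins, growth factors and 2 further surface or soluble receptors, all known from the secretome of senescent cells. They were taken by gene symbol, and 33 of the 39 had a probe set annotated to that symbol alone, out of 21980 probe sets in all. Where a gene had several such probe sets, as IL6 did, the one with the highest mean over the 10 arrays was used. CXCL1 shares its probe set with CXCL2, and FGF2 and FGF7 likewise have only probe sets with several symbols, so these 3 were not analysed here, nor were CSF2, SERPINB2 and AREG.

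RNA came from U2OS, a human osteosarcoma cell line, on Affymetrix exon arrays summarised per gene, as log2 expression values deposited by the authors. The 5 arrays of the treated group came from cells exposed for 4 h to PD0332991, also called palbociclib, which blocks the kinases CDK4 and CDK6 that cyclin D activates. The 5 arrays they were compared with came from cells given the solvent DMSO for the same time. All cells had been plated at 25% density and grown for 30 h in medium with 10% serum. The dose is labelled 1 mM, and no source here settles the unit; cultured cells are usually given micromolar amounts. They call the arrays biological replicates without saying how cultures were separated. The array names divide the 10 arrays into array set 2 (4 arrays, replicates 4 and 5 of both treatments) and array set 1 (6 arrays, replicates 1 to 3 of both treatments).

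Senescent cells stay metabolically active and release a mixture of inflammatory and matrix-remodelling proteins, the senescence-associated secretory phenotype. Its inflammatory arm is driven mainly by the transcription factors NF-kB and C/EBP-beta, with membrane-bound interleukin 1 alpha acting upstream and interleukins 6 and 8 as its best known products. The phenotype is known to build up over days after a lasting arrest, and inhibition of CDK4 and CDK6 is one way to impose such an arrest. In bone-derived tumour cells several of the same genes, among them those for osteoprotegerin and the IGF-binding proteins, also belong to the normal secretome of the osteoblast lineage.

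Genes of the G1/S transition driven by E2F factors, known to lie downstream of CDK4 and CDK6, are given first. CCNE2, the cyclin E2 gene, averaged 6.09 ± 0.27 on the log2 scale on PD0332991 arrays and 7.99 ± 0.39 on DMSO arrays (SD, n = 5 each), and CCNE2, CCNE1, E2F2, CDC25A, MCM10 and DTL all fell in the limma fit used below (adjusted p 0.00289 to 0.0499). These 6 genes were chosen with results of these data known, so their fall is a description and no independent check of the treatment labels. The 8 osteoblast and mesenchymal markers measured averaged 8.40 to 8.72 together on PD0332991 arrays and 8.46 to 8.83 on DMSO arrays. SPARC, COL1A1 and VIM were bright, at 11.77 to 12.04 over the 10 arrays, RUNX2, COL1A2, COL5A1 and ALPL lay between 6.24 and 8.30, and IBSP, a late osteoblast gene, was at 4.12. The 7 epithelial markers averaged 7.79 to 8.20 together on PD0332991 arrays and 7.66 to 8.10 on DMSO arrays; KRT8 and KRT18 were bright, at 11.70 and 10.85, and 0 of the 7 lay under the lower quartile of all probe set means. The 5 leukocyte markers measured averaged 5.28 to 5.74 together on PD0332991 arrays and 5.39 to 5.92 on DMSO arrays, with 3 of the 5, among them PTPRC at 3.90, below the lower quartile of all probe set means (5.24). The 5 endothelial markers measured averaged 4.79 to 5.35 together on PD0332991 arrays and 4.99 to 5.40 on DMSO arrays. DMSO replicate 1 stood apart from the rest: its interquartile range was 3.18, against 3.32 to 3.68 on the other 9 arrays. It held the highest value of all 10 arrays for 15 of the 33 secretory genes (45.5%), and for 31.7% of all probe sets. 

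No secretory gene passed the test of PD0332991 against DMSO. The test was limma's moderated fit with a term for the array set, its p-values adjusted by Benjamini and Hochberg's method across the 21980 probe sets at a threshold of 0.05; it called 0 of the 33 genes, where 0.05% of all probe sets were called (11, of which 9 lower and 2 higher). At an unadjusted p under 0.05 the count was 1 of 33 (3.03%), IGFBP5, against 4.17% of all probe sets. For 0 of the 33 did the treated arrays lie beyond all DMSO arrays of their own array set, in one direction, in both sets; 2.26% of all probe sets did so. The smallest adjusted p among the 33 was 1.00, and leaving out any 1 array gave no call. The values are bulk measurements, so a change in the share of cells that express a gene cannot be told apart from a change in its RNA per cell.

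Confidence intervals were taken for each gene separately, on the measured values. The 95% interval of the fold change lay within 1.5-fold in either direction for 31 of the 33 genes (93.9%), against 74.4% of all probe sets, and within 2-fold for all 33. The exceptions to the narrower bound were CXCL3, with an interval reaching 1.53-fold higher, and CCL7, with an interval reaching 1.62-fold lower. Under the lower quartile of all probe set means lay 5 of the 33, and 11 lay over the upper quartile. The shares of 93.9% and 74.4% are thus of unlike brightness. Of the 33, 19 were above 0 and 14 below, with a median log2 fold change of 0.01, beside a median of -0.02 over all probe sets, of which 44.8% were above 0. The standard errors of the 33 ran from 0.09 to 0.25, with a median of 0.13. A gene that misses the threshold is not shown to be unchanged, and these intervals are what the 10 arrays allow. For the 5 genes under the lower quartile, the processing makes fold changes too small, so their intervals do not bound the change in RNA. Without DMSO replicate 1, 12 of the 33 uncalled estimates had the opposite sign, all of them within 0.11 of 0 on both sides. IL1A was then at 0.03 and IL1B at 0.01, IL11 at 0.05 and CCL2 at 0.05. TIMP2 was at 0.11 and PLAT at -0.05, IGFBP3 and IGFBP6 were at 0.06 each and IGFBP7 at 0.02. EREG was at -0.01, STC1 at 0.03 and ICAM1 at 0.10. None of these values was past the threshold with or without the array.

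**Figure D1:**
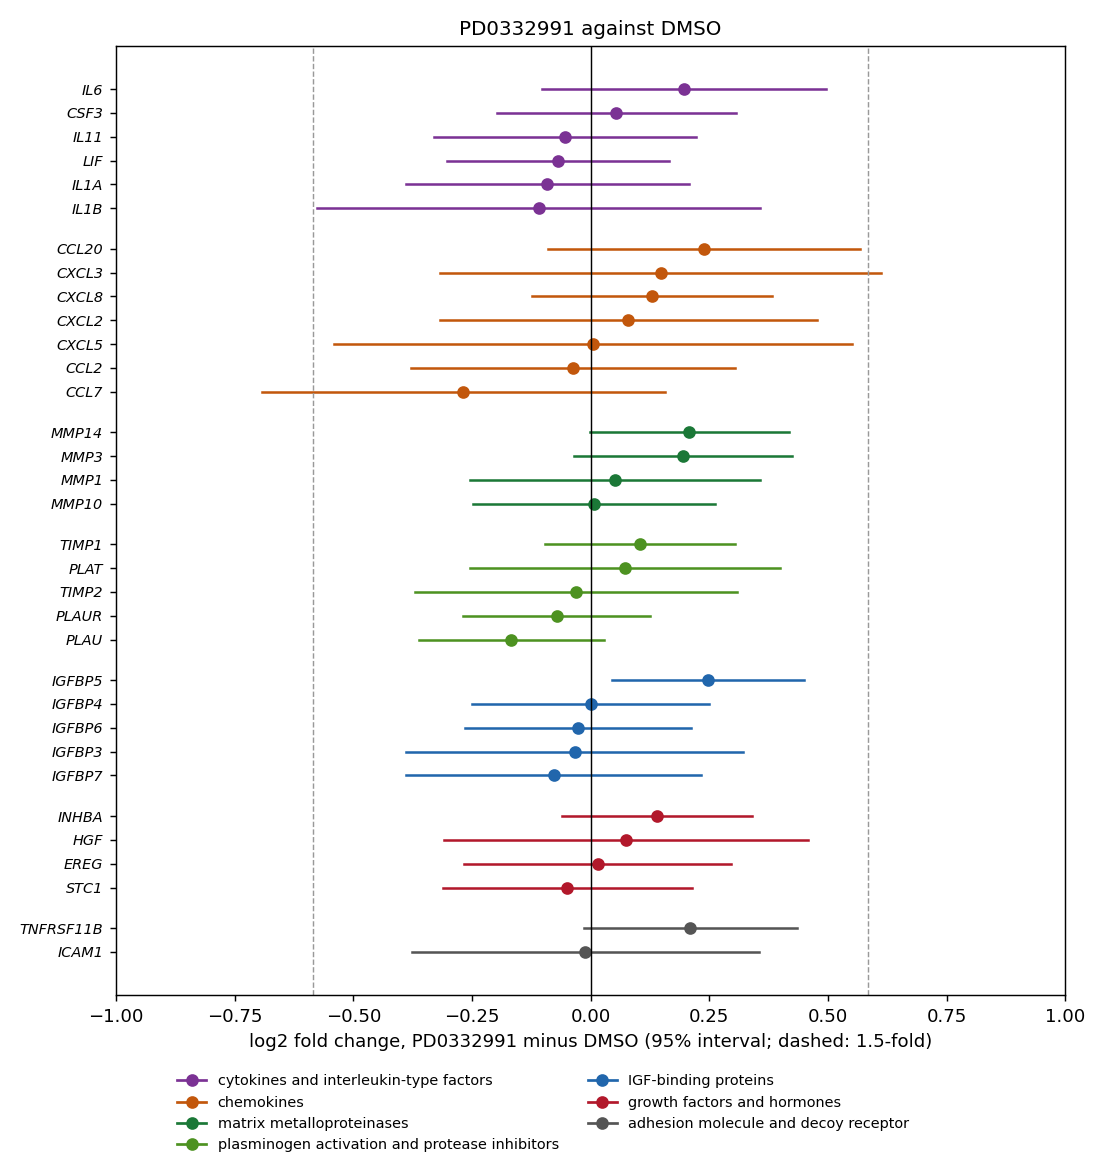
Log2 fold change of each of the 33 secretory genes (horizontal axis, PD0332991 minus DMSO, from limma with the array set as a covariate, 5 arrays per treatment), grouped by role, with points for estimates and lines for 95% intervals. All estimates lie between -0.27 and 0.25, and 31 of the 33 intervals lie inside the dashed lines at 1.5-fold.

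Among the cytokines, 6 of 7 were measured, 2 above 0 and 4 below, with a median of -0.06 on the log2 scale. In order of replicates 1 to 5, as for every gene below, IL6, an inflammatory cytokine that signals through the receptor subunit gp130, read 5.59, 5.59, 5.19, 5.91 and 5.56 on PD0332991 arrays, against 5.24, 5.56, 5.09, 5.61 and 5.35 on DMSO arrays (log2). Each treated array was above the DMSO array of the same number, but the groups overlapped, and the log2 fold change was 0.20 ± 0.13 (n = 5 each, limma adjusted p = 1.00). The labels do not pair arrays of the same number, so that order is a description. Fold changes and array set differences are given with the SE of the fit throughout. The other IL6 probe set, with a mean of 5.32 over the 10 arrays, gave 0.12 ± 0.16.

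IL1A, the gene for interleukin 1 alpha, read 4.21, 4.32, 4.37, 4.59 and 4.69 on PD0332991 arrays, against 4.91, 4.31, 4.35, 4.56 and 4.50 on DMSO arrays. IL1B, the gene for its secreted relative interleukin 1 beta, read 4.97, 5.16, 4.25, 5.07 and 4.59 on PD0332991 arrays, against 5.31, 4.64, 4.53, 4.95 and 5.15 on DMSO arrays. For both genes the highest of the 10 values was DMSO replicate 1, the groups overlapped, and the means lay below the lower quartile of all probe sets, and no detection call was used here. Their log2 fold changes were -0.09 ± 0.13 and -0.11 ± 0.21. The other cytokines likewise showed no difference past the spread: LIF and IL11, of the same gp130 family as IL6, had -0.07 ± 0.11 and -0.05 ± 0.12, and CSF3, the granulocyte colony-stimulating factor, had 0.05 ± 0.11.

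Among the chemokines, 7 of 8 were measured, 5 above 0 and 2 below, with a median of 0.08. CXCL8, the gene for interleukin 8, which draws neutrophils through CXCR1 and CXCR2, read 6.62, 6.57, 6.48, 7.76 and 8.08 on PD0332991 arrays, against 6.39, 6.32, 6.75, 7.73 and 7.66 on DMSO arrays. CCL20, the ligand of CCR6, read 5.78, 5.91, 5.47, 7.23 and 7.16 on PD0332991 arrays, against 5.31, 4.98, 5.56, 7.23 and 7.27 on DMSO arrays. In both genes replicates 4 and 5 of each treatment were well above replicates 1 to 3, a pattern taken up further on, while the treatments overlapped. The log2 fold change was 0.13 ± 0.11 for CXCL8 and 0.24 ± 0.15 for CCL20, the highest value among cytokines and chemokines; CCL20 was at 0.43 within array set 1 and -0.05 within array set 2.

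CCL7, which like CCL2 draws monocytes through CCR2, had the lowest value of the 33 genes. It read 4.16, 3.93, 3.70, 4.39 and 4.20 on PD0332991 arrays, against 4.97, 4.26, 4.06, 4.29 and 4.14 on DMSO arrays, a log2 fold change of -0.27 ± 0.19. The highest value was DMSO replicate 1, without which the log2 fold change was -0.09, and the gene lies below the lower quartile of all probe sets. CXCL2, CXCL3 and CXCL5, related neutrophil chemokines, had 0.08 ± 0.18, 0.15 ± 0.21 and 0.01 ± 0.25. CXCL2 and CXCL3 are near copies of each other, and their probes may read one another. CXCL3 had the widest gap between the array sets, at -0.18 in set 1 and 0.63 in set 2, and stood at 0.34 without DMSO replicate 1. CCL2 had -0.04 ± 0.15.

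Among the matrix metalloproteinases all 4 were measured and all 4 were above 0, with a median of 0.12 and none past the threshold. MMP14, the membrane-bound enzyme that activates the MMP2 proenzyme, read 9.45, 9.50, 9.50, 9.53 and 9.35 on PD0332991 arrays, against 9.05, 9.22, 9.35, 9.32 and 9.36 on DMSO arrays. The treated values were narrowly spread and mostly the higher ones, with 1 treated array inside the DMSO range, and the log2 fold change was 0.21 ± 0.09 (limma adjusted p = 1.00). MMP3, stromelysin 1, read 10.68, 10.63, 10.73, 9.96 and 10.00 on PD0332991 arrays, against 10.18, 10.44, 10.64, 9.85 and 9.91 on DMSO arrays. Each treated array was above the DMSO array of the same number, a match the labels do not give. The log2 fold change was 0.19 ± 0.10, and replicates 4 and 5 of both treatments were below replicates 1 to 3. The interstitial collagenase gene MMP1 had 0.05 ± 0.14 and MMP10, stromelysin 2, 0.01 ± 0.11.

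The plasminogen activation genes and the protease inhibitors showed small differences in both directions. Of 6 genes 5 were measured, 2 above 0 and 3 below, with a median of -0.03. PLAU, which encodes urokinase, read 8.96, 8.90, 9.01, 9.79 and 9.81 on PD0332991 arrays, against 9.30, 9.01, 9.11, 9.96 and 9.93 on DMSO arrays, a log2 fold change of -0.17 ± 0.09 (adjusted p = 1.00 in limma). Every treated array was below the DMSO array of the same number, a match the labels do not give. The treatments overlapped within array set 1 and separated within array set 2, and the array sets differed more than the treatments. TIMP1, a metalloproteinase inhibitor, read 12.75, 12.50, 12.58, 12.80 and 12.85 on PD0332991 arrays, against 12.39, 12.47, 12.45, 12.76 and 12.88 on DMSO arrays, with 0.10 ± 0.09. The treated arrays were above the DMSO arrays in array set 1 and level with them in array set 2. PLAUR, the urokinase receptor gene, had -0.07 ± 0.09, PLAT, the tissue-type activator, 0.07 ± 0.15, and TIMP2 -0.03 ± 0.15.

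**Figure D2:**
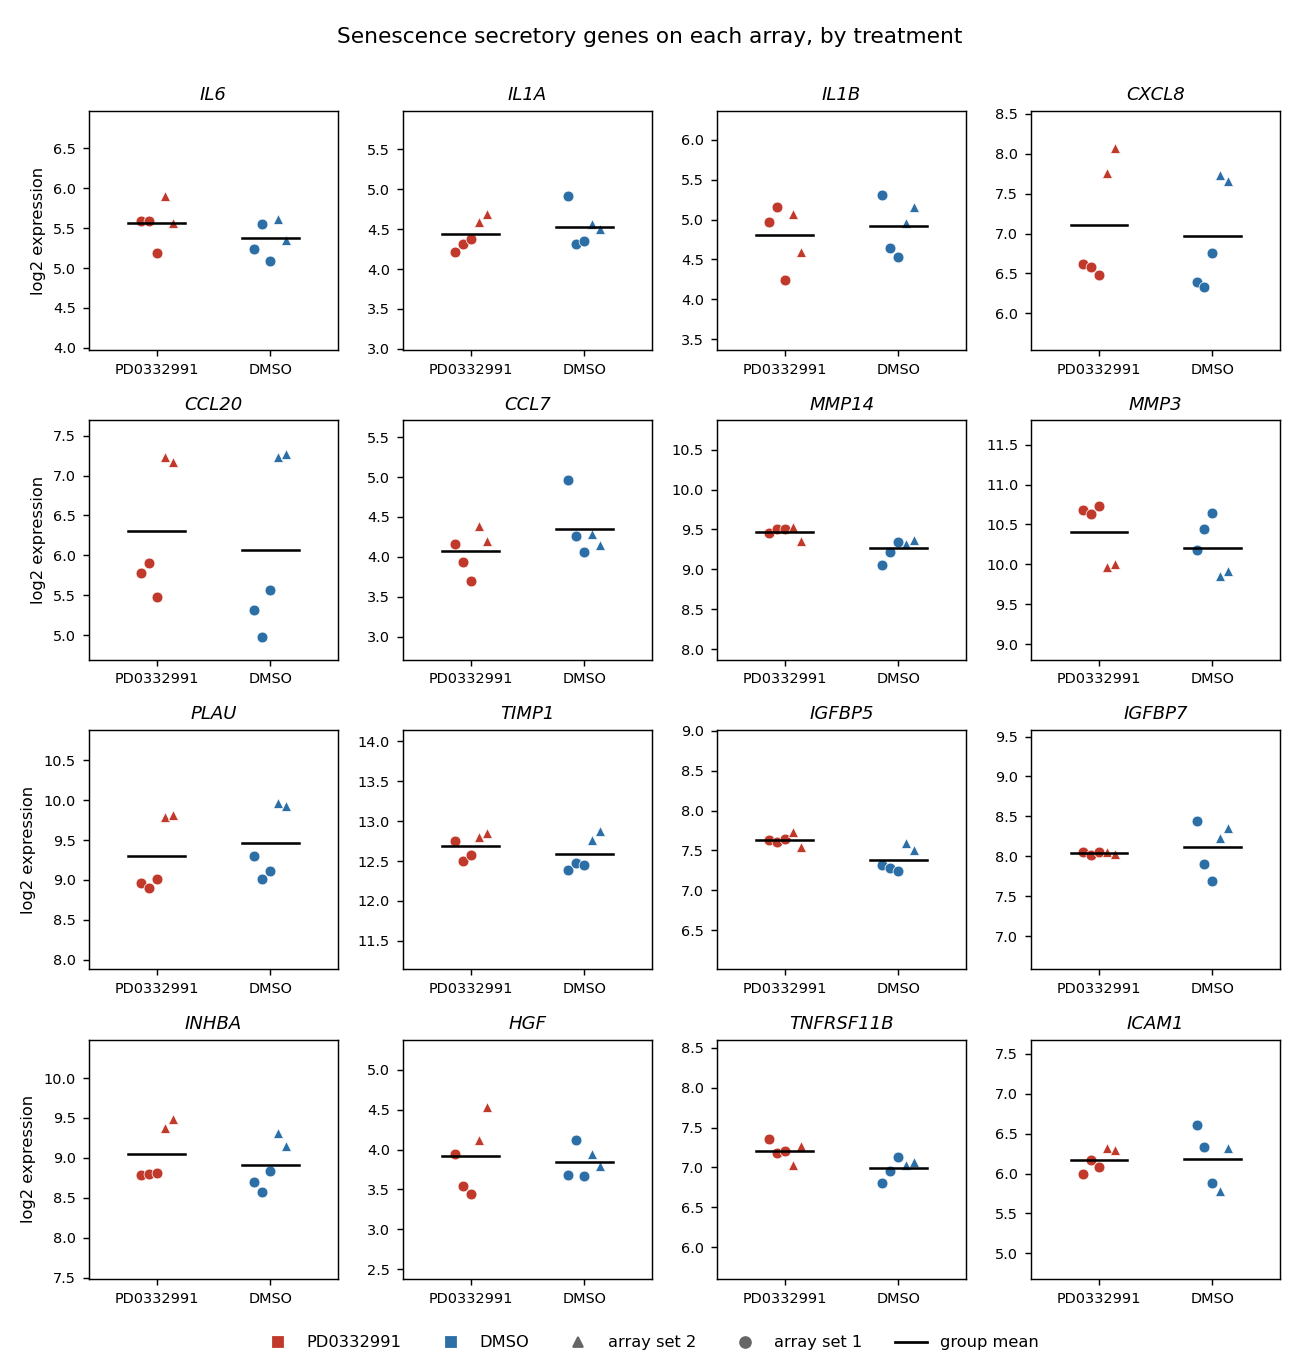
Log2 expression of 16 secretory genes on each array (vertical axis, spanning 3 log2 units in every panel), with PD0332991 arrays on the left and DMSO arrays on the right, triangles for array set 2, circles for array set 1 and bars for the mean of 5. The treatments overlap in all 16 panels, and in CXCL8 and CCL20 the triangles lie above all circles of both treatments.

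Among the IGF-binding proteins, which bind IGFs in the extracellular space and set how much reaches the IGF1 receptor, all 5 were measured, 2 at or above 0 and 3 below, with a median of -0.03. IGFBP5 had the highest log2 fold change of the 33 genes. It read 7.63, 7.61, 7.65, 7.73 and 7.55 on PD0332991 arrays, against 7.31, 7.28, 7.24, 7.60 and 7.50 on DMSO arrays. The treated values lay above all DMSO values in array set 1 and overlapped them in array set 2, with differences of 0.35 and 0.09. The log2 fold change over both sets was 0.25 ± 0.09, a 1.19-fold difference with a 95% interval of 1.03 to 1.37 (limma adjusted p = 1.00).

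IGFBP7 differed between the treatments in spread rather than in mean. It read 8.06, 8.02, 8.05, 8.05 and 8.03 on PD0332991 arrays (SD 0.02), against 8.44, 7.90, 7.69, 8.22 and 8.35 on DMSO arrays (SD 0.32), with a log2 fold change of -0.08 ± 0.14. All 5 treated arrays lay inside the DMSO range. That difference in spread was picked out after the values were seen and was not tested. IGFBP4 had 0.00 ± 0.11, IGFBP3 -0.03 ± 0.16 and IGFBP6 -0.03 ± 0.11.

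Of 7 growth factors and hormones 4 were measured, 3 above 0 and 1 below, with a median of 0.04. INHBA, which encodes the activin A subunit, read 8.78, 8.80, 8.82, 9.37 and 9.49 on PD0332991 arrays, against 8.69, 8.57, 8.84, 9.31 and 9.15 on DMSO arrays, with 0.14 ± 0.09. HGF, the ligand of MET, read 3.94, 3.54, 3.44, 4.12 and 4.54 on PD0332991 arrays, against 3.68, 4.12, 3.68, 3.94 and 3.79 on DMSO arrays, with 0.07 ± 0.17. For INHBA the array sets were further apart than the treatments; HGF lay near the bottom of the array's range on all 10 arrays. EREG, a ligand of the epidermal growth factor receptor, had 0.02 ± 0.13, and the glycoprotein hormone gene STC1 had -0.05 ± 0.12.

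TNFRSF11B, which encodes osteoprotegerin, the decoy receptor that osteoblasts release to bind RANKL, read 7.36, 7.18, 7.21, 7.03 and 7.26 on PD0332991 arrays, against 6.81, 6.95, 7.13, 7.03 and 7.07 on DMSO arrays. Within set 1 all treated arrays were above all DMSO arrays, within set 2 they overlapped, and the log2 fold change was 0.21 ± 0.10 (limma adjusted p = 1.00). Separation within 1 set, as also for IGFBP5, TIMP1 and MMP14 in set 1, was not counted over all probe sets. Within set 2 alone, IL1A, CSF3, CXCL8, CXCL2, CXCL3, MMP1, MMP3, HGF and INHBA separated with the treated arrays higher. LIF, PLAU and IGFBP7 separated there with the treated arrays lower. Set 2 holds only 2 arrays of each treatment, so such an order can easily arise by chance. ICAM1, the adhesion molecule that leukocyte integrins bind, read 5.99, 6.17, 6.09, 6.32 and 6.30 on PD0332991 arrays, against 6.61, 6.34, 5.89, 5.78 and 6.32 on DMSO arrays, with -0.01 ± 0.16. The 5 treated values lay inside the DMSO range.

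Set side by side, the role groups had medians close to that of all probe sets. The median log2 fold change was 0.01 for the 13 cytokines and chemokines, 0.05 for the 9 proteases and inhibitors, -0.03 for the 5 IGF-binding proteins and 0.04 for the 4 growth factors. The ranges were -0.27 to 0.24, -0.17 to 0.21, -0.08 to 0.25 and -0.05 to 0.14 in the same order. Within array set 1 alone the medians of the proteases and inhibitors and of the growth factors were -0.08 and -0.075; within array set 2 alone the growth factors had 0.20. Without DMSO replicate 1 the median of the cytokines and chemokines was 0.11 and that of all 33 genes 0.07. The treatment by array set interaction called 0 of 21980 probe sets in limma (562 at an unadjusted p under 0.05), and 0 of the 33 genes had an unadjusted interaction p under 0.05; the smallest, for CXCL3, was 0.052.

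The array sets separated several secretory genes far more than the treatment did. With array set 2 set against array set 1 and the treatment as a covariate, a comparison chosen after the data were seen, 8 of the 33 genes were higher in set 2 and 1 was lower (limma, adjusted p under 0.05). Over all probe sets 2.57% were higher and 0.965% lower in set 2, 3.53% together, beside 27.3% of the secretory genes. In counts, 564 probe sets were higher and 212 lower. After quantile normalization these were 527 and 389, and after cyclic loess 520 and 390. The secretory genes tended to be brighter than the table as a whole, so the shares are not like for like. Without the dimmest 33.3% of probe sets, 8.68% of the rest were called, with 9 secretory genes higher and 1 lower. All arrays of set 2 lay above all arrays of set 1 for 9 of the 33 genes and below them for 1; such an order in either direction was present in 9.42% of all probe sets. The array set is read from the array names. It cannot be told apart from the culture, the RNA preparation or the hybridisation of those replicates, none of which is recorded per array in the sources used here.

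The largest differences were in 3 of the 7 chemokines measured. CCL20 averaged 7.22 ± 0.04 in set 2 and 5.50 ± 0.33 in set 1 (log2, SD, n = 4 and 6), a 3.29-fold difference with a 95% interval of 2.61 to 4.16 (limma adjusted p = 0.00260). CCL2, the monocyte chemokine, read 8.59 and 8.99 on the PD0332991 arrays and 8.70 and 8.33 on the DMSO arrays of set 2, against 7.05, 7.04 and 7.33 on the PD0332991 arrays and 7.58, 7.40 and 7.17 on the DMSO arrays of set 1. No array of set 2 overlapped set 1, and CCL2 was 2.62-fold higher in set 2 (2.06 to 3.34, limma adjusted p = 0.00290). CXCL8 averaged 7.81 ± 0.18 in set 2 and 6.52 ± 0.16 in set 1, a 2.43-fold difference (2.03 to 2.91, limma adjusted p = 0.00260). The remaining chemokines measured, CXCL2, CXCL3, CXCL5 and CCL7, had log2 differences between -0.10 and 0.16 and were not called.

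The genes for urokinase and its receptor, 2 of the 4 growth factors measured and 1 gp130 cytokine were higher in set 2 as well. PLAU was 1.77-fold higher in set 2 (1.54 to 2.03) and its receptor gene PLAUR 1.44-fold (1.25 to 1.65). EREG was 1.62-fold higher (1.33 to 1.98), INHBA 1.49-fold (1.30 to 1.72) and LIF 1.45-fold (1.23 to 1.71), with limma adjusted p between 0.00290 and 0.0292 for these 5 genes. Of the other growth factors, HGF differed by 0.36 ± 0.18 and STC1 by -0.25 ± 0.12, and neither was called. MMP3 went the other way, with 9.93 ± 0.07 in set 2 and 10.55 ± 0.21 in set 1, 1.53-fold lower in set 2 (log2 difference -0.62 ± 0.11, SE, limma adjusted p = 0.0164). IL6 differed by 0.23 ± 0.14, and its other probe set by 0.48 (limma adjusted p = 0.132, SE not given here). IL11 differed by 0.47 ± 0.13 (limma adjusted p = 0.0746). None of the 5 IGF-binding proteins was called by limma, nor had an unadjusted p under 0.05 (0 of 5), with values of 0.01 to 0.22.

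**Figure D3:**
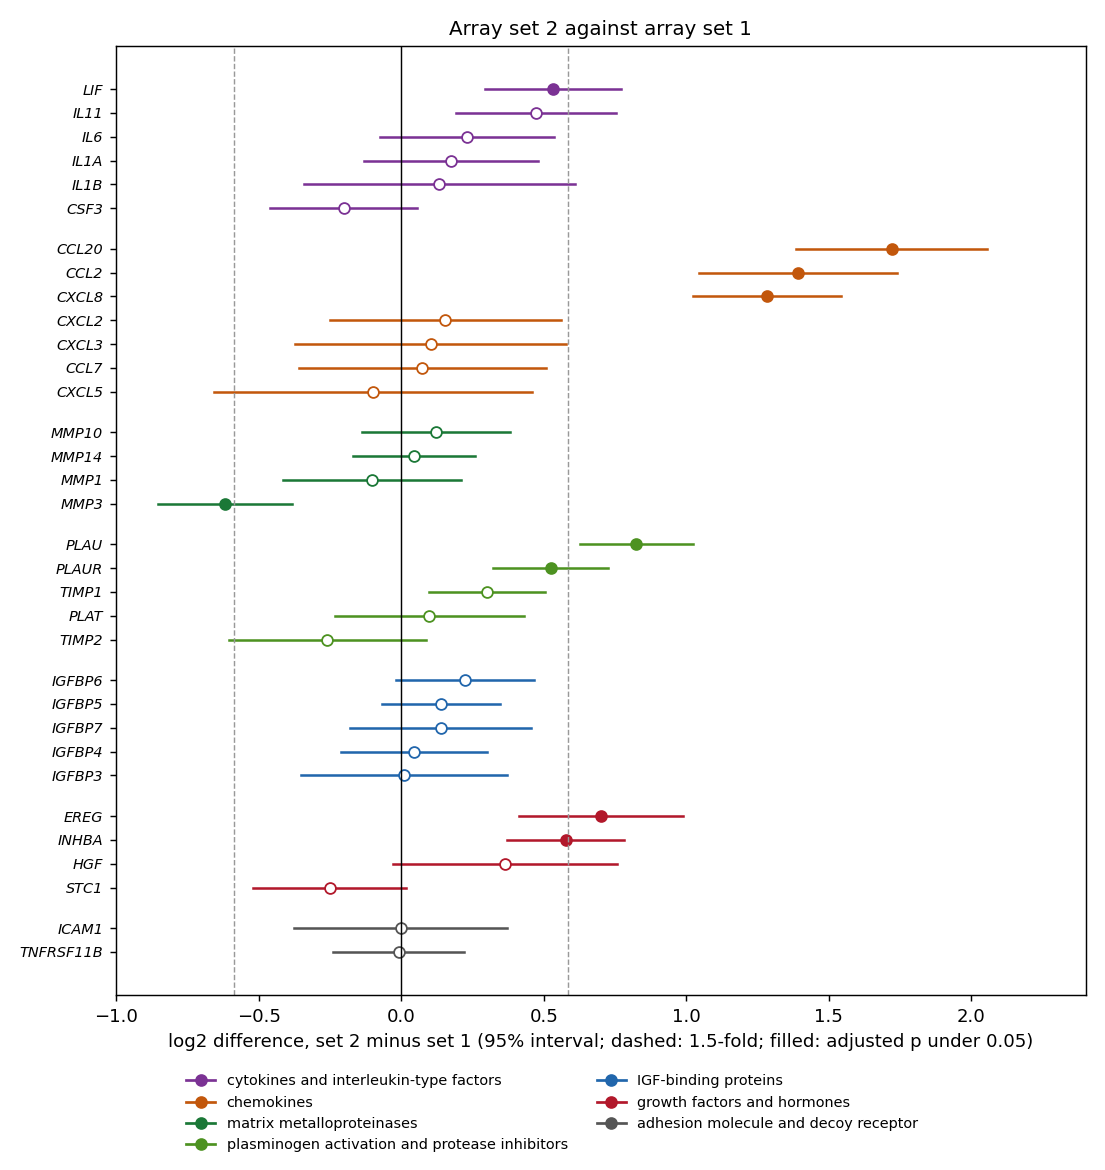
Log2 difference of each of the 33 secretory genes between the array sets (horizontal axis, set 2 minus set 1, from limma with the treatment as a covariate, 4 and 6 arrays), grouped by role, with 95% intervals as lines and filled points for adjusted p under 0.05. CCL20, CCL2 and CXCL8 lie above 1.2, and MMP3 is the 1 filled point below 0.

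The differences of the called genes are given within each treatment as a description, since the genes were chosen on the same 10 arrays. CCL20 differed by 1.48 on PD0332991 arrays and 1.96 on DMSO arrays, CXCL8 by 1.36 and 1.21, CCL2 by 1.65 and 1.13, and MMP3 by -0.70 and -0.54. Within 1 treatment no probe set of the whole table passed the adjusted threshold in limma. After quantile normalization or cyclic loess all 9 stayed called. The calls of CXCL8, CCL2, CCL20 and PLAU held when any 1 array was left out; for the other 5 the call was lost in some settings while the difference moved little. With 1 array left out at a time, the log2 difference of MMP3 ran from -0.68 to -0.57, that of PLAUR from 0.49 to 0.56, that of INHBA from 0.54 to 0.62, that of EREG from 0.63 to 0.80 and that of LIF from 0.47 to 0.57. Without PD0332991 replicate 4 or without DMSO replicate 5 these 4 genes alone were called, without PD0332991 replicate 5 INHBA joined them and without DMSO replicate 4 EREG did. LIF was also lost without PD0332991 replicate 2, DMSO replicate 2 or DMSO replicate 3. Without DMSO replicate 1 all 9 were called, and IL11 and IGFBP6 too.

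**Figure D4:**
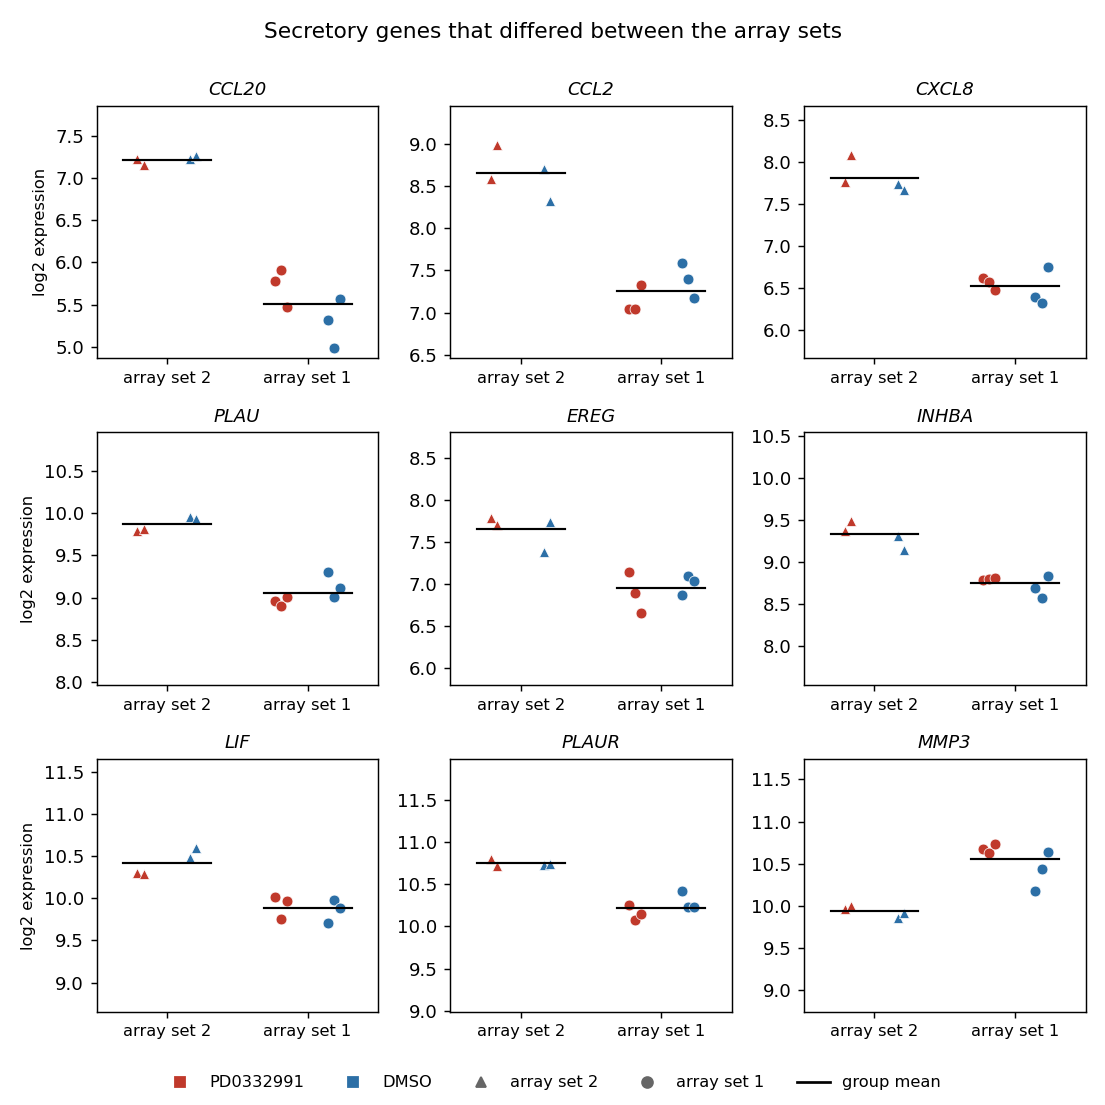
Log2 expression of the 9 secretory genes called between the array sets, on each array (vertical axis, spanning 3 log2 units in every panel), with array set 2 on the left and set 1 on the right, PD0332991 in red, DMSO in blue and bars for the mean of each set. In all 9 panels no array of set 2 overlaps set 1, and MMP3 is the 1 gene with set 2 below set 1.

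Promoter sequences are shown for CCL20 and CXCL8, which differed between the array sets, and for IL6, a textbook NF-kB gene. IL6 was not called on either of its probe sets, though both were higher in set 2. Each run is the 250 bases before the annotated start, 5′ to 3′ on the plus strand, from RefSeq on GRCh38.p14: chr2:227813592-227813841 for CCL20, chr4:73740319-73740568 for CXCL8 and chr7:22726950-22727199 for IL6. Capitals mark matches, on either strand, to the kB-type motif GGNNNTTCC or the AP-1 motif TGANTCA, where N is any base.
CCL20: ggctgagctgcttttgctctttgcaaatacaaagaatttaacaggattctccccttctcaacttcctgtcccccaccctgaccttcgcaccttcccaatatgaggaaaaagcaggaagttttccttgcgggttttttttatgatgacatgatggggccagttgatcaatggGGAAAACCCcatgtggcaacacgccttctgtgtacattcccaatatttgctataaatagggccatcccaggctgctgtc
CXCL8: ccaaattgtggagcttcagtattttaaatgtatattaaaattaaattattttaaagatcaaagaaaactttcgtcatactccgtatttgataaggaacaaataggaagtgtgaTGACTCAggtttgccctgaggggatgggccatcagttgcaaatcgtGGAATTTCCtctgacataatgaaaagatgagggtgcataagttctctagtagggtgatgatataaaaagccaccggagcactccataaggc
IL6: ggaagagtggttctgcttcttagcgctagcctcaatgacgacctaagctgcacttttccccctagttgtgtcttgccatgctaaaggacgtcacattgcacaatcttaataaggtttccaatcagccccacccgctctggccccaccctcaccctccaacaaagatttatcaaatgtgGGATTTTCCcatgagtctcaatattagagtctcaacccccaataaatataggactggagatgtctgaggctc
Each of the 3 windows holds 1 kB-type match, beginning 79 bases before the start in CCL20, 91 in CXCL8 and 72 in IL6, and CXCL8 also holds 1 AP-1 match at 137 bases.

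Of the 33 genes 23 had a promoter sequence, and 9 of these held the kB-type motif, beside 17.1% of 35116 promoter windows of the same length. For both motifs a gene counted if any of its windows held a match, while the shares of all windows are per window. Genes with several windows had more chances, so the 2 kinds of share are not like for like. The 9 genes were IL6, CXCL8, CXCL2, CXCL3, CXCL5, CCL20, IGFBP6, INHBA and ICAM1. Of the genes higher in set 2, 3 of the 6 with a sequence held it (CXCL8, CCL20 and INHBA), and of the genes not called between the sets 6 of 17 did. The AP-1 motif was found in 6 of 23 (IL1A, IL11, CXCL8, CCL7, MMP10 and PLAUR), beside 6.57% of all windows, with 2 of 6 among those higher in set 2 and 4 of 17 among those not called. The 2 motifs share no position in the printed windows. A match is a description of letters and not evidence of binding.

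The regulators, receptors and further factors below surround the secretory genes in their pathways. Of 42 regulators of the NF-kB, C/EBP and related pathways 37 were measured, 18 above 0 and 19 below, with a median of 0.00 and 0 called by limma. At an unadjusted p under 0.05 0 were higher and 4 lower (10.8%), beside 4.17% of all probe sets. NOTCH1, a receptor known to switch senescent cells between secretory programs, read 7.63, 7.42, 7.64, 7.60 and 7.44 on PD0332991 arrays, against 7.86, 7.80, 7.90, 7.90 and 7.80 on DMSO arrays. The groups did not overlap, with a log2 fold change of -0.31 ± 0.09, but the adjusted p was 0.705 in limma. It was the only 1 of the 37 to separate within both array sets, beside 2.26% of all probe sets. IRF1, an interferon-responsive factor, had -0.34 ± 0.13 and CGAS, the cytosolic DNA sensor gene, -0.49 ± 0.20.

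Of 35 receptors and partners 29 were measured, 14 above 0 and 15 below, with a median of -0.01 and 0 called; 0 were higher and 2 lower (6.90%) at an unadjusted limma p under 0.05, beside the same 4.17%. EGFR, the receptor for the EREG and AREG proteins, read 7.29, 7.24, 7.35, 7.54 and 7.44 on PD0332991 arrays, against 8.06, 7.47, 7.74, 8.01 and 7.81 on DMSO arrays. The groups overlapped in 1 DMSO array and separated within each set, at -0.45 ± 0.12 with a limma adjusted p of 0.635. Among the 29, 2 separated within each set, beside 2.26% of all probe sets. FGFR2 had -0.36 ± 0.11 and LIFR, the receptor of LIF, 0.32 ± 0.16. Of 45 further secreted factors 35 were measured, 12 above 0 and 23 below, with a median of -0.02, 0 called, and 1 higher and 1 lower (5.71%, beside 4.17%) at an unadjusted limma p under 0.05. TGFB2 had 0.22 ± 0.10, IL7 -0.40 ± 0.14 and SPP1, the osteopontin gene, 0.19 ± 0.10.

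Between the array sets, 3 regulators were higher in set 2 and 2 were lower, of 37 measured (limma), a share of 13.5%. Of all probe sets 3.53% were called, and 8.68% without the dimmest 33.3%. Of the 29 receptors 0 were called, with 2 higher and 2 lower at an unadjusted p under 0.05, and of the 35 further secreted factors 0, with 4 higher and 2 lower. The higher ones were NFKBIE, an inhibitor of NF-kB (log2 difference 0.82 ± 0.14, limma adjusted p = 0.0151), RELB, a subunit of NF-kB (0.62 ± 0.14), and TNFAIP3, a ubiquitin-editing inhibitor of NF-kB signalling that NF-kB itself induces (0.52 ± 0.10). The lower ones were the chromatin protein genes HMGB2 (-0.95 ± 0.20) and KMT2A (-0.55 ± 0.11). Among the markers of other cell types the epithelial gene CLDN4 was higher in set 2 (1.10 ± 0.12, limma adjusted p = 0.00290), and no further marker of epithelial, leukocyte or endothelial cells was called (1 endothelial and 0 leukocyte markers at an unadjusted p under 0.05); the part of other cells in the array set differences was not tested.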

How the data were processed

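The deposited table gives every probe set's log2 expression value on each array at gene level, made by the authors with RMA and Partek on genome build hg18, per the submitters' processing notes; versions and parameters are not given in the sources used here. RMA corrects background, normalizes and summarises in log2 units, so fold changes of dim genes come out too small. Array medians ran from 6.95 to 7.06. Signal over background was not used here.

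Probe sets were named by the platform annotation; the Entrez identifiers of all 33 genes gave the same symbol in RefSeq, GRCh38.p14. Tests were 2-sided moderated fits (limma 3.58.1, R 4.3.3) with terms for treatment and array set. Benjamini-Hochberg adjustment ran across all 21980 probe sets. The procedure was tested on data simulated without array set differences. There it recovered 8 of 67 changes of 0.5 log2 units, 48 of 67 of 1 unit and 64 of 66 of 2 units. SE and intervals come from the moderated fit. Figures used Matplotlib 3.10.9. Per-array values are given for IL6, CXCL8, IL1A, IL1B and the 2 genes of each role group with the smallest p, and CCL2 was added after its values were seen; up to 3 genes with the smallest p are named from each other list, and further genes where they differed between array sets. The role groups cover all 39 genes. The genes and lists were chosen with earlier results of these data known.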

Additional observations from a re-analysis of the deposited data

Results flagged for a closer look

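Among 66 sets of 5 arrays (33 genes in each treatment), 2 held an array far from the other 4 by Dixon's criterion, and both were DMSO replicate 1; chance flags about 1 set in 20. CXCL3 read 7.18 on DMSO replicate 1 and 6.20 to 6.48 on the other DMSO arrays. CCL7 read 4.97 on DMSO replicate 1 and 4.06 to 4.29 on the others. The same array had the narrowest spread of values of all 10 arrays.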

How the results depend on the processing

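No secretory gene was called between PD0332991 and DMSO under any alternative; the smallest adjusted p of any of them was 0.382, for IGFBP5 with array weights. Over the whole table, where 2 probe sets were higher and 9 lower, the counts were 1 higher without the array set in the model, 4 higher and 14 lower over single-symbol probe sets, 13 and 50 with array weights, 1 and 4 with a minimum fold of 1.2, 0 and 0 in array set 1 alone, 0 and 0 in array set 2 alone, and 4 higher at a threshold of 0.1. Leaving out 1 array gave 1 to 3 higher and 1 to 20 lower, the most without DMSO replicate 1. With a replicate block instead of the array set term, 1 probe set was higher, 1 was lower and 0 secretory genes were called; the labels say nothing of a pairing. Same-numbered arrays' deviations from their group means correlated at 0.04 to 0.54, with 2 of 5 pairs under 0.1; after the array set was taken out, the 5 correlations were -0.0988, 0.0177, 0.403, -0.355 and -0.267, and before it 4 of the 10 arrays correlated best with their own number. The median of the proteases and inhibitors, 0.05, was -0.0788 in array set 1 alone and -0.0247 to 0.0831 with 1 array left out. That of the growth factors, 0.04, was -0.075 in array set 1 alone and 0.20 in array set 2 alone. Up to 12 of the 33 uncalled log2 fold changes changed sign under an alternative, the most without DMSO replicate 1.

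For the array sets, with 8 secretory genes higher and 1 lower among 564 higher and 212 lower probe sets, each count was 0 in PD0332991 arrays alone and 0 in DMSO arrays alone, with fewer arrays in each. Lower probe sets numbered 389 after quantile normalization, 390 after cyclic loess and 358 without both arrays numbered 1. Higher and lower numbered 872 and 400 without the dimmest 33.3% of probe sets and 1806 and 1160 with array weights. Leaving out 1 array gave 4 to 10 secretory genes higher and 0 to 1 lower, with 76 to 1187 probe sets higher and 12 to 618 lower; where that left 1 array of a treatment in set 2, it was assumed to vary like the others. The labels give no pairing of same-numbered arrays, so the fit with a replicate block was kept as an alternative. Except as stated, causes were not tested. With 10 arrays small changes of any gene could be missed, and without signal over background small changes of dim genes were not detectable.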
